A study of Mus musculus with 6 samples.

Results

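The Hox genes of the mouse, in their 4 clusters, and the genes of their TALE cofactors were followed in thymocytes of wild-type mice and of mice with a knockout of the transcription factor TCF-1. Members were chosen by gene symbol, as every row named Hoxa, Hoxb, Hoxc or Hoxd with a number, or Meis, Pbx or Pknox with a number. This gave 48 of the 26332 genes in the count table. The 46 described here, over which all counts of members below run, were 38 Hox genes (10 in HoxA, 10 in HoxB, 9 in HoxC and 9 in HoxD) and 8 TALE genes (3 Pbx, 3 Meis and 2 Pknox genes). The rule reads no measured value, but the family was singled out with results of this comparison known, so the adjusted p-values given for its members describe them and are not independent support.

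Each library came from the thymus of an individual C57BL/6 mouse. 4 mice were wild type (WT), and 2 were knockouts (KO) of Tcf7, which encodes TCF-1. Which part of Tcf7 was removed, whether in all cells, and the age of the mice are not in the labels. Both groups were sorted alike as double negative 3 (DN3) cells, with CD25 on their surface and without CD44, CD3, TCRβ, CD8, NK1.1 or CD1d tetramer binding. The male mice were WT 4 and KO 1, and the others were female.

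Hox genes encode homeodomain transcription factors, which are lined up in each cluster in the order in which they are used along the body axis. In blood formation, genes of the HoxA and HoxB clusters are active in stem and progenitor cells and fall silent as cells mature. The TALE proteins Pbx, Meis and Pknox bind DNA together with Hox proteins: Pbx forms the Hox complex, and Meis or Pknox joins it through Pbx.

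Depth was 23711513 to 41666797 counts in WT, 19589938 in KO 1 and 13673860 in KO 2. A level of 3 counts, used here as the limit that a count of 0 allows, was 0.0724 to 0.125 CPM (counts scaled to a common library size) in a WT library, 0.154 in KO 1 and 0.224 in KO 2. In WT 1 to 4 Tcf7 itself was measured at 2326, 2270, 2266 and 2094 CPM, against 1133 in KO 1 and 1022 in KO 2, so transcripts of the gene remained. The 11 markers of DN3 cells had counts in all libraries, and summed they reached 9347 to 9904 CPM in WT libraries, 7814 CPM in KO 1 and 8209 CPM in KO 2. In the edgeR test described below, 5 of them were lower in KO (Il2ra, Ptcra, Notch3, Hes1 and Erg), 1 higher (Dtx1) and 5 not called, with a median log2 change of -0.49. The KO libraries differed from each other more than the WT libraries did, with a biological coefficient of variation of 0.491 against 0.0844. These values were estimated without a sex term, and that of KO rests on KO 1, a male, and KO 2, a female.

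Most Hox genes were silent in these cells. No count was found in any of the 6 libraries for 23 of the 38 Hox genes. They were Hoxa11 in HoxA, Hoxb1, Hoxb5, Hoxb6, Hoxb7, Hoxb8, Hoxb9 and Hoxb13 in HoxB, and Hoxc5 and Hoxc8 to Hoxc13 in HoxC. In HoxD they were Hoxd1, Hoxd3 and Hoxd8 to Hoxd13. Over all genes of the table, 67.9% had a count in some library. A count of 0 allows up to 0.0250 CPM over the pooled WT libraries and up to 0.0911 CPM over the pooled KO libraries, and these limits cover counting error only.

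Another 4 Hox genes (Hoxa10, Hoxb2, Hoxc4 and Hoxd4) had counts, but fewer than 3 in every library. The remaining 11 reached 3 counts somewhere, 8 of them in HoxA, 2 in HoxB (Hoxb3 and Hoxb4) and 1 in HoxC (Hoxc6, with 3 counts in WT 3 only). HoxD had 1 count in all, for Hoxd4 in WT 1. The active genes thus lay in a run from Hoxa2 to Hoxa7 and at Hoxb4, as the map of levels by cluster and paralog number shows.

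**Figure D1:**
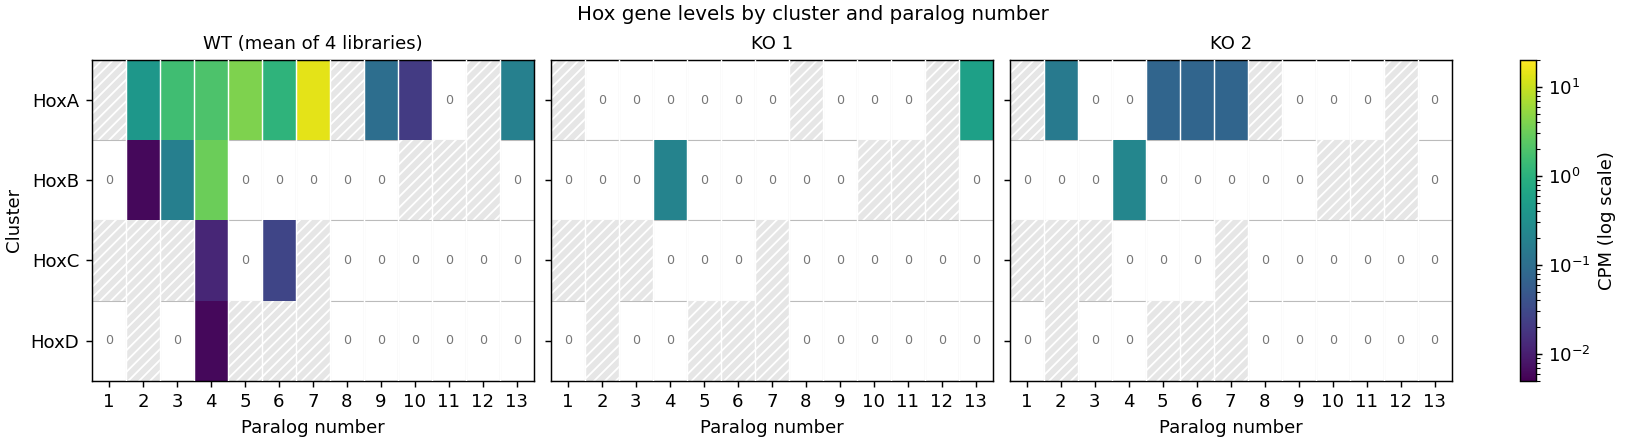
Level of 38 Hox genes in CPM (colour, log scale) by cluster (rows) and paralog number (columns), as the mean of the 4 WT libraries and in each KO library. A 0 marks a gene without a count and hatching a position with no gene or a gene not shown; WT signal runs from Hoxa2 to Hoxa7 with Hoxb4 beside it, and KO 1 and KO 2 show counts for 2 and 5 Hox genes.

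In WT the summed level of the 38 Hox genes was 24.1 to 29.0 CPM. Levels of different genes are compared per kb of the deposited gene length. On that scale HoxA made up 91.1% ± 0.746 (SD, n = 4) of the Hox signal and Hoxb4 8.41% ± 0.917. Hoxa7 alone took 49.3% ± 3.00, and Hoxa2 to Hoxa7 together 89.8% ± 0.782.

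By level in WT, Hoxa7 (7.24 CPM per kb ± 0.892) came before Hoxa5 (2.18 ± 0.179), Hoxa6 (1.58 ± 0.162), Hoxa4 (1.30 ± 0.143) and Hoxb4 (1.22 ± 0.0795). Hoxa3 (0.608 CPM per kb ± 0.0664) and Hoxa2 (0.242 ± 0.0960) followed. Hoxa6 and Hoxa4, and Hoxa4 and Hoxb4, differed by less than the sum of their SDs. These values depend on the deposited lengths: that of Hoxa3 is 2543 bases, against 6014 exon bases in GENCODE.

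In KO the Hox signal was almost gone. The summed level was 0.768 CPM in KO 1 and 0.597 in KO 2, and 23 reads fell on these 38 genes, against 3253 in WT. In KO 1 they were 11 counts of Hoxa13 and 4 of Hoxb4. In KO 2 they were 3 counts of Hoxb4, 2 of Hoxa2 and 1 each of Hoxa5, Hoxa6 and Hoxa7. In bulk RNA, fewer cells that express a gene and less RNA per cell cannot be told apart.

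12 of the 46 members had enough counts for edgeR's quasi-likelihood test, 7 Hox and 5 TALE genes. In that test, fitted over all 13294 genes with enough counts, 30.7% of genes had a Benjamini-Hochberg adjusted p under 0.05 and are termed called, 16.5% lower and 14.1% higher in KO. 6 of the 7 Hox genes (Hoxa3, Hoxa4, Hoxa5, Hoxa6, Hoxa7 and Hoxb4) were called lower, none higher, and Hoxa2 was not called. The 7 passed the count filter through their WT level, so this count is not support for a direction.

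The share of genes with at most 1 count over both KO libraries was taken among genes chosen on their WT level alone. It was 0.979% of the 11744 genes with a WT mean of at least 1 CPM, and it covered 5 of the 10 members at that level: Hoxa3, Hoxa4, Hoxa5, Hoxa6 and Hoxa7. No KO count at all was found for 0.826% of those genes and for 2 of the 10 members. The cutoff of 1 count equals the KO counts of Hoxa5, Hoxa6 and Hoxa7, and the genes were not matched to the members for level. The contrast is thus a description and not support. The other 5 members at that WT level were Hoxb4, Pbx2, Pbx4, Meis3 and Pknox1.

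The calls depended on the test used. limma-voom with weights per genotype differs from edgeR in its weights and in how it models counts, and these were not tested apart. limma-voom with weights per genotype called 3.63% of all genes lower and 7.33% higher in KO, and it called 0 of the 7 Hox genes, with Hoxa7 nearest at an adjusted p of 0.0986, and 1 of the 5 TALE genes, Meis3. edgeR fits 1 spread to both genotypes although the KO libraries differed more, so the share of false calls among the genes called here is not known.

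Stem and early progenitor markers other than Meis1 and Hoxa9 were lower in sum in KO, at 81.4 to 87.9 CPM in WT libraries, 27.0 CPM in KO 1 and 43.0 CPM in KO 2. Of the 10, 6 were tested, with a median log2 change of -1.16. Of these 6, 2 were called higher (Lyl1 and Lmo2) and none lower, against 14.1% and 16.5% of all tested genes. Kit, the stem cell factor receptor, made up most of the WT sum. B-cell markers moved the other way, at 237 to 266 CPM in WT libraries, 545 CPM in KO 1 and 1083 CPM in KO 2. Of the 11, 7 were tested and 5 called higher, while Ms4a1 and Pax5 had no count in WT or KO 1. Markers of double positive cells also moved, summing to 69.5 to 81.0 CPM in WT libraries, 613 CPM in KO 1 and 2171 CPM in KO 2, with 5 of 7 called higher and 1, Cd1d1, lower. Markers of mature alpha-beta T cells summed to 627 to 789 CPM in WT libraries, 1440.3 CPM in KO 1 and 1445 CPM in KO 2, with 6 of 7 called higher and Il7r lower. Gamma-delta markers summed to 848 to 900 CPM in WT libraries, 1225 CPM in KO 1 and 1359 CPM in KO 2. Of the 6, 5 were tested, 3 were called higher and Trgc1 lower. Markers of mesenchyme and endothelium summed to 173 to 183 CPM in WT libraries, 918 CPM in KO 1 and 361 CPM in KO 2. Pdgfrb made up most of the KO sums, while Col3a1 and Pdgfra had no count in any library. Of the 8, 4 were tested, 2 were called higher and 1 lower. The KO sums of myeloid, dendritic and erythroid markers lay below WT or within its range in KO 1 and above WT in KO 2. Of 4 myeloid genes tested, 2 were called higher and 1 lower. Of 5 erythroid genes tested 1 was called higher, and of 3 dendritic genes none was called. Elane and Siglech had no count in any library. The KO sums of NK and innate lymphoid markers lay above WT in KO 1 and within its range in KO 2. Of the 7, 3 were tested, 1 was called higher and 1 lower. The part of these shifts in the Hox and TALE values was not tested.

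The central genes of HoxA lie on the reverse strand of chromosome 6, and the cluster spans 105.5 kb. Of its genes Hoxa5 and Hoxa7 were expressed in WT and Hoxa9 barely, and Hoxb4 was the expressed gene of another cluster. The 250 bases before the start sites of Hoxa5, Hoxa7, Hoxa9 and Hoxb4 are shown. They are RefSeq sequences of GRCm38.p6, 5′ to 3′ on the gene's strand, with CpG dinucleotides in capitals. Hoxa5 is at chr6:52204588-52204837, Hoxa7 at chr6:52218574-52218823 and Hoxa9 at chr6:52227371-52227620, all on the reverse strand, and Hoxb4 at chr11:96318017-96318266 on the forward strand.
Hoxa5: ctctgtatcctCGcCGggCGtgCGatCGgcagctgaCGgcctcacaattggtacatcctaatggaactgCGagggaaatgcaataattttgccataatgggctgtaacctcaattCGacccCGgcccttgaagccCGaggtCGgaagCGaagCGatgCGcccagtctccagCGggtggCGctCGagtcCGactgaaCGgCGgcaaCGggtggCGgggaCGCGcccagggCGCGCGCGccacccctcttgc
Hoxa7: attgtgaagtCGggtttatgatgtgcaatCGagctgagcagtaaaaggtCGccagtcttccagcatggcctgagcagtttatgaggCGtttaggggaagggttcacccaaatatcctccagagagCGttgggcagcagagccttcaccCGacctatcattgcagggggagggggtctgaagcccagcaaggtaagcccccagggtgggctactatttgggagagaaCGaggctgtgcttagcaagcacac
Hoxa9: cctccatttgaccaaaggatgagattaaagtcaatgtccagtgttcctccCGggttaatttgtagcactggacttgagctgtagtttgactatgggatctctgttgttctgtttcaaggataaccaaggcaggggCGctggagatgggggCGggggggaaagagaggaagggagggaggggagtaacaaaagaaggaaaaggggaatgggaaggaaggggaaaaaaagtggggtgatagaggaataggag
Hoxb4: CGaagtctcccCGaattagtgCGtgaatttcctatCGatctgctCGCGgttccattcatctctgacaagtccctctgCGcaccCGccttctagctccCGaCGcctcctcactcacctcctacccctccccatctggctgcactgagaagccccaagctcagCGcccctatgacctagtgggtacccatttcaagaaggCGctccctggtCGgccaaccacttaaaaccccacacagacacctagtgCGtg

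These stretches hold 28 CpG dinucleotides at Hoxa5, 7 at Hoxa7, 3 at Hoxa9 and 14 at Hoxb4. RefSeq promoter windows of 300 bases, from 250 before to 50 after the start, matched 27 of the 46 members with 29 windows. Their median was 15 CpG dinucleotides, against 7 in all 32851 windows. The 5 windows of Hox genes called lower (Hoxa3, Hoxa5, Hoxa6, Hoxa7 and Hoxb4) had 9 to 29, and the 12 windows of silent Hox genes 4 to 37, so the ranges overlapped.

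The core of the TCF/LEF motif, CTTTGA, and the Pbx and Hox composite motif TGATNNAT were searched on both strands; a stretch can match both, since CTTTGA may end in the start of TGATNNAT. CTTTGA was in 16% of all windows and in 4 of the 24 Hox windows, those of Hoxa10, Hoxa11, Hoxd8 and Hoxd12. TGATNNAT was in 8.85% of all windows and also in 4 of the 24, those of Hoxa2, Hoxb1, Hoxb8 and Hoxd11. Neither was in the 5 windows of Hox genes called lower, and among the TALE windows only that of Meis2 held CTTTGA. These are matches of letters in short windows only.

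The anterior genes of HoxA were low in WT. Hoxa2, a patterning gene of the hindbrain and face, had levels of 0.410, 0.627, 0.345 and 0.246 CPM in WT 1 to 4, none in KO 1 and 0.149 CPM in KO 2. The KO values lay below all WT values, but the 2 KO counts gave a ratio of WT to KO of 6.59 with a 95% interval of 1.73 to 56.0, and the gene was not called (adjusted p = 0.125). Both KO libraries were below all WT libraries in 28.6% of all tested genes.

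Hoxa3, which is needed to form the thymus itself, was at 1.40, 1.42, 1.61 and 1.76 CPM in WT 1 to 4 and had no count in KO. The groups did not overlap. At 184 counts in WT the level was at least 16.9-fold lower in KO, against 3 counts over both KO libraries (edgeR adjusted p = 0.00510). The kit does not mark strand, and 27.1% of the exon bases of Hoxa3 in GENCODE overlap other genes. Among them are the opposite-strand Hoxaas3 and 5730596B20Rik, so their reads cannot be told apart. Overlaps also cover 16% of the exon bases of Hoxa4 and 15.0% of those of Hoxa2, but none of Hoxa5 or Hoxa6.

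Hoxa3 is also a gene of the thymic epithelium. Of the other 8 markers of that tissue, Foxn1 and Krt5, which define it, had no count in any library. The 8 summed to 149 to 160 CPM in WT libraries, 46.1 CPM in KO 1 and 53.3 CPM in KO 2, nearly all of it Epcam. Only Epcam and Aire were tested, and both were called lower. The part of these 8 markers in the Hoxa3 result was not tested.

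Hoxa4, a gene of the neck and upper trunk, was at 1.74, 2.26, 2.03 and 1.90 CPM in WT 1 to 4 and had no count in KO. It was at least 21.3-fold lower (adjusted p = 0.00446), from 233 WT counts. All WT libraries were close to each other, and the KO libraries lay below them.

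Hoxa5, a regulator of axial skeleton and lung that is also expressed in blood progenitors, was at 4.39, 4.35, 3.87 and 3.72 CPM in WT 1 to 4, at 0 in KO 1 and at 0.0746 in KO 2, where it had 1 count. At the WT rate 135 KO counts would have been found. The ratio of WT to KO was 135 with a 95% interval of 24.2 to 5361 (adjusted p = 0.00217). No KO value came near the WT range.

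Hoxa6, its neighbour, was at 1.16, 1.21, 1.11 and 0.949 CPM in WT 1 to 4, at 0 in KO 1 and at 0.0746 in KO 2. The single KO count gave a ratio of 36.5 (95% interval 6.45 to 1454, adjusted p = 0.0112). The groups did not overlap, but the call was lost when WT 1, WT 2 or WT 3 was left out.

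Hoxa7, the most abundant Hox gene here and a partner of Hoxa9 in leukaemias with MLL fusions, was at 16.3, 13.5, 14.5 and 12.2 CPM in WT 1 to 4. KO 1 had no count and KO 2 had 1 count, or 0.0746 CPM, where 474 would have been found over both at the WT rate. The 95% interval of the ratio of WT to KO ran from 84.9 to 18720 (adjusted p = 0.000544), and the groups did not overlap. In GENCODE 20.4% of the exon bases of Hoxa7 overlap the opposite-strand Hoxaas3, and reads there cannot be told apart. Among the WT libraries the coefficient of variation was 12.3%, above the 4.82% that counting alone gives, whereas for Hoxa3, Hoxa4, Hoxa5 and Hoxa6 it was 8.23% to 11.1%, below the 9.01% to 17.3% of counting.

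The signal ended at Hoxa7. Hoxa9, a main Hox gene of blood stem cells, had 14 counts over the 4 WT libraries (0.101 CPM ± 0.0836) and none in KO. At the WT rate 3.85 KO counts would have been found, so a difference was hardly detectable at this depth. Hoxa10 had 3 WT counts.

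Hoxa13, a gene of limb and genital development at the far end of the cluster, differed from its neighbours. It had 5, 7, 7 and 2 counts in WT 1 to 4, 11 in KO 1 and 0 in KO 2, or 0.121, 0.293, 0.268 and 0.0703 CPM in WT and 0.563 CPM in KO 1. KO 1 was above and KO 2 below all WT libraries. The counts were too few for the test over all libraries.

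**Figure D2:**
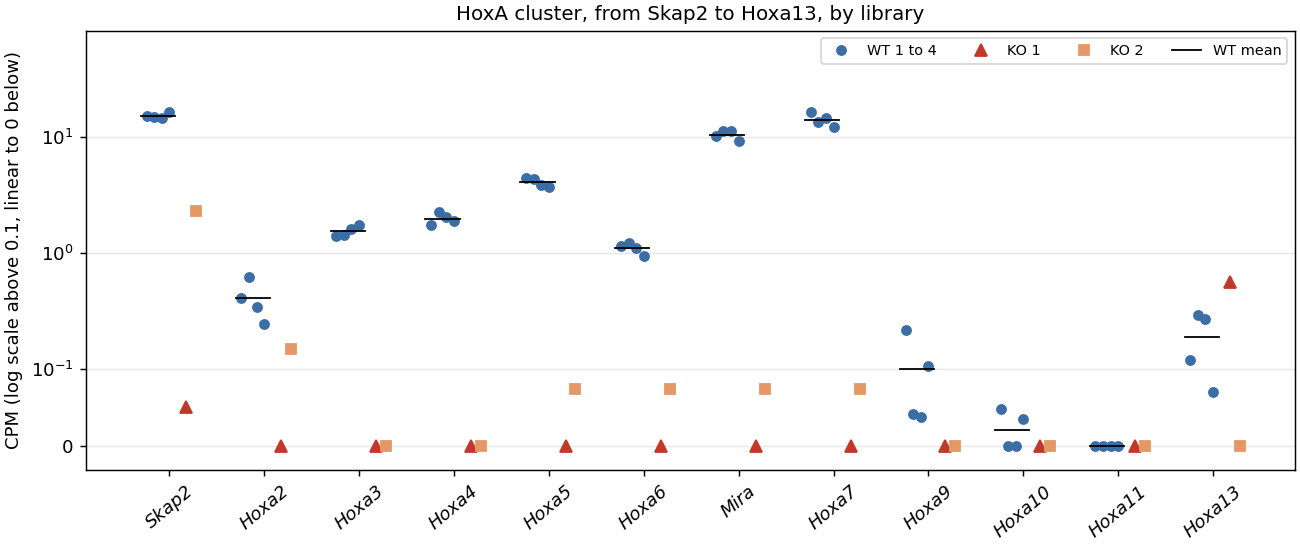
Level in CPM (log scale above 0.1, linear below) of the HoxA genes, the long non-coding RNA gene Mira and the flanking gene Skap2, in genomic order, with a point for each library and a line for the WT mean. From Hoxa3 to Hoxa7 the WT points lie at 0.949 CPM or more and the KO points at 0.0746 CPM or less, while KO 1 is the highest library at Hoxa13.

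Other transcripts of the HoxA cluster also had few or no counts in KO. Mira, a long non-coding RNA gene between Hoxa6 and Hoxa7 that has been described to recruit MLL1 to them, was at 10.3, 11.2, 11.2 and 9.28 CPM in WT 1 to 4. It had no count in KO 1 and 1 in KO 2, a ratio of WT to KO of 343 (95% interval 61.5 to 13576, adjusted p = 0.000692). The groups did not overlap, and the call was lost with limma-voom.

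The antisense RNA genes Hoxaas3 and 5730596B20Rik had 37 and 22 counts over the WT libraries and none in KO. Their pooled WT levels were 3.39-fold and 2.01-fold above the limit of 3 counts over both KO libraries. Hoxa11os and the microRNA gene Mir196b had no count in any library. Elsewhere, Gm11538 inside HoxB had 5, 3, 0 and 3 counts in WT 1 to 4 and none in KO. Evx1os beyond Hoxa13 had 2 and D930007P13Rik beside HoxC had 1, all in WT. Of a list of 10 RNA genes of the 4 clusters, which holds Hoxaas3 but neither Mira nor 5730596B20Rik, the other 9 had no count in any library, and none was tested.

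Beyond the cluster, Skap2, the gene of an adaptor of Src kinases 143 kb from the edge of the cluster, was at 15.3, 15.0, 14.5 and 16.3 CPM in WT 1 to 4, 0.0512 in KO 1 and 2.31 in KO 2. Both KO libraries were below WT, KO 1 with 1 count and KO 2 by 6.60-fold (log2 -3.84, SE 0.91, adjusted p = 0.0307). The call was lost with limma-voom, with the replicate block and without WT 1, WT 2 or WT 3. At the Hoxa13 end, Evx1, a homeobox gene related to the clusters, had 12, 10, 3 and 0 counts in WT 1 to 4 and none in KO. The groups thus overlapped, and Evx1 was not tested. Further out, Hibadh, an enzyme of valine breakdown, was at 244 CPM ± 6.26 in WT and 110 and 173 CPM in KO (log2 -0.75, SE 0.16, adjusted p = 0.0243). The call of Hibadh was lost with the replicate block and without WT 1, WT 2 or WT 3.

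In HoxB, Hoxb4 was the only gene above 1 CPM. It is known for expanding blood stem cells when it is overexpressed. Its level was 2.95, 3.43, 3.07 and 3.13 CPM in WT 1 to 4, 0.205 CPM in KO 1 and 0.224 CPM in KO 2.

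All KO values of Hoxb4 were below all WT values, and both KO libraries had counts, 4 and 3, where Hoxa3 to Hoxa7 had none in KO 1. It was 15.4-fold below the WT mean in KO 1 and 14.0-fold in KO 2 (log2 -3.84, SE 0.36, adjusted p = 0.00184). No exon bases of Hoxb4 overlap another gene in GENCODE.

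Hoxb3, whose span holds Hoxb4, had 5, 5, 9 and 1 counts in WT 1 to 4 and none in KO, and was not tested. Its pooled WT level was 1.83-fold above the limit of 3 counts over both KO libraries (0.0911 CPM). WT 4 alone, at 0.0351 CPM, lay below that limit. In GENCODE 52.9% of the exon bases of Hoxb3 overlap the opposite-strand Hoxb3os, and reads there cannot be told apart. Hoxb5 to Hoxb9, on the high-numbered side of Hoxb4, were silent. Of the genes outside HoxB, Atp5g1 and Gm11529 were not called (adjusted p = 0.235 and 0.491).

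Within 500 kb of the clusters, a width chosen after the values were seen, 2 of 3 tested genes were called lower around HoxA (Skap2 and Hibadh) and none higher. Around HoxB 1 of 16 was called higher (B4galnt2) and 1 lower (Zfp652). Around HoxC 3 of 18 were called lower (Hnrnpa1, Nfe2 and Itga5) and none higher. Around HoxD neither of the 2 tested genes was called. Over all tested genes, 16.5% were called lower and 14.1% higher. The nearest coding genes with counts, Calcoco1 and Smug1 on either side of HoxC and Lnpk and Mtx2 on either side of HoxD, were not called. Of a list of 13 flanking genes, 8 were tested, and Skap2 and Hibadh were the 2 called.

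**Figure D3:**
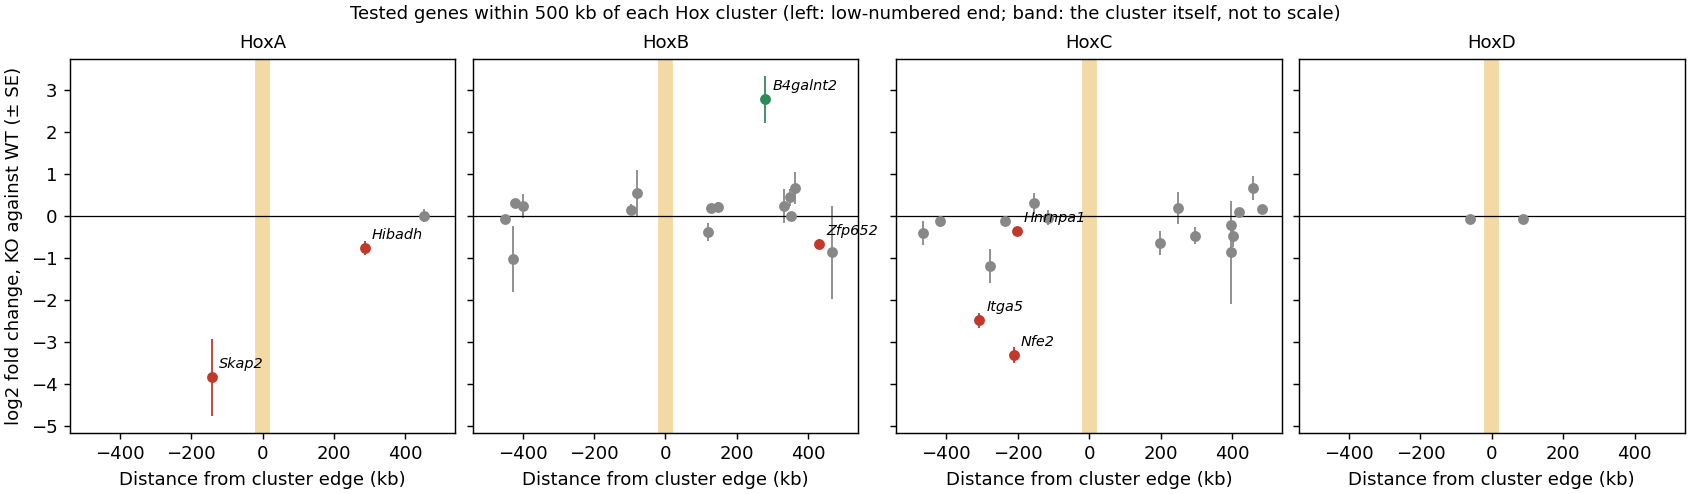
Log2 fold change of KO against WT with its SE for the tested genes within 500 kb of each Hox cluster, by distance from the cluster edge in kb, with genes on the side of the low-numbered Hox genes at negative distances. Red points were called lower, green higher and grey not called; Skap2, Nfe2 and Itga5 show the lowest values, and the grey points beside HoxD lie near 0.

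The summed level of the 8 TALE genes lay just above WT in KO 1 and just below it in KO 2, at 203 to 206 CPM in WT libraries, 223 CPM in KO 1 and 199 CPM in KO 2. Per kb, the WT signal was made up of Pbx2 (44.9% ± 1.82, SD, n = 4), Pknox1 (29.2% ± 1.98), Pbx4 (16.2% ± 1.49) and Meis3 (9.17% ± 0.865). Of the 8 genes 5 were tested in edgeR, 1 was called higher (Meis3), 0 lower and 4 not called. At an unadjusted p under 0.05, 2 were lower (Pbx2 and Pbx4), and the DESeq2 test called both lower.

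Pbx2, the broadly expressed family member, was at 84.8, 84.3, 85.4 and 94.0 CPM in WT 1 to 4, 85.5 CPM in KO 1 and 70.4 CPM in KO 2. The KO values lay inside and below the WT range, and the gene was not called (log2 -0.22, SE 0.07, adjusted p = 0.0734). Pbx3, a partner of Hoxa9 in leukaemia, was low and overlapped between the groups, at 0.217 to 0.805 CPM in WT and 0.768 and 0.672 in KO (adjusted p = 0.796).

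Pbx4 was at 14.4, 16.0, 13.2 and 17.0 CPM in WT 1 to 4, 14.8 in KO 1 and 5.67 in KO 2. KO 1 lay within the WT range, KO 2 2.67-fold below the WT mean, and the gene was not called (adjusted p = 0.0921).

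Meis3 was the only member called higher in KO. It was at 12.0, 11.7, 11.6 and 9.94 CPM in WT 1 to 4, 46.2 in KO 1 and 20.4 in KO 2. Both KO libraries lay above WT, by 4.09-fold and 1.80-fold, so they also differed from each other (log2 1.40, SE 0.33, adjusted p = 0.0305). Both KO libraries were above all WT libraries in 22.9% of all tested genes, and the call was lost without WT 1, WT 2 or WT 3.

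The other Meis genes were near silent. Meis1, the partner of Hoxa9 in stem cells and leukaemia, had 2, 1, 1 and 2 counts in WT 1 to 4 and none in KO, where 1.65 would have been found at the WT rate. Meis2 had 6 counts in KO 2 and none elsewhere. Neither had enough counts for the test.

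Pknox1, also called Prep1, a partner of Pbx that is present in most tissues, was at 93.3, 92.7, 91.3 and 82.9 CPM in WT 1 to 4, 75.3 CPM in KO 1 and 101 CPM in KO 2. KO 1 lay below and KO 2 above all WT libraries, and the fitted change was 0.02 on the log2 scale (SE 0.09, adjusted p = 0.857). Its relative Pknox2 had 4, 6, 4 and 9 counts in WT and none in KO, and was not tested. The pooled WT level of Pknox2 was 2.11-fold above the limit of 3 counts over both KO libraries.

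**Figure D4:**
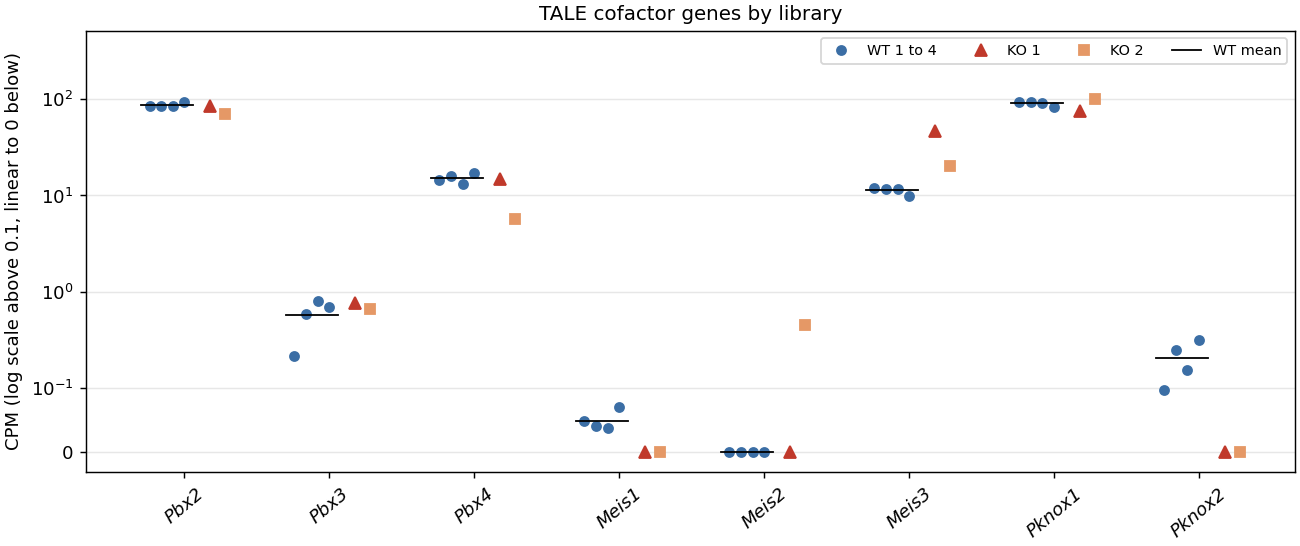
Level in CPM (log scale above 0.1, linear below) of the 8 TALE genes, with a point for each library and a line for the WT mean. Pbx2 and Pknox1 stay at 70.4 CPM or more in all libraries, and Meis3 is higher in KO 1 and KO 2 than in any WT library.

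The genes that keep Hox clusters open or closed were looked at next. The trithorax and MLL group maintains active Hox genes. Of 35 such genes, all tested, 5 were called higher (14.3%), 4 lower (11.4%) and 26 not, against 14.1% and 16.5% of all tested genes, and the median log2 change was -0.05, against -0.04 over all tested genes. Kmt2a, the gene of MLL1 and the best known activator of Hox genes, was at 649, 685, 639 and 793 CPM in WT 1 to 4, 410 CPM in KO 1 and 269 CPM in KO 2 (log2 -1.15, SE 0.10, adjusted p = 0.00168).

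All KO values of Kmt2a were below WT, and the call was kept under all 13 alternatives. Mllt6, whose protein is found fused to MLL1 in leukaemia, went the other way, with 58.5 CPM ± 5.50 in WT, 153 CPM in KO 1 and 114 CPM in KO 2 (log2 1.10, SE 0.08, adjusted p = 0.000783), and was also kept under all 13. The next genes by adjusted p were Rad21 and Eaf1, called higher, and Setd1b and Aff3, called lower. The call of Rad21 was lost with the replicate block, that of Eaf1 also without WT 1, WT 2 or WT 3, and those of Setd1b and Aff3 in these settings and with limma-voom.

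Polycomb proteins silence Hox genes. Of 37 genes of the group, all tested, 4 were called higher (10.8%), 9 lower (24.3%) and 24 not, with a median log2 change of 0.04. Jarid2, an accessory subunit of PRC2, was called higher, with 80.7 CPM ± 2.88 in WT, 120 CPM in KO 1 and 138 CPM in KO 2 (log2 0.71, SE 0.07, adjusted p = 0.00175), as were Phc1 and Aebp2. Phc3, a subunit of PRC1, was called lower, with 182 CPM ± 5.71 in WT, 86.8 CPM in KO 1 and 109 CPM in KO 2 (log2 -0.86, SE 0.09, adjusted p = 0.00279), as were Pcgf5 and Pcgf6. Phc3 was kept under all 13 alternatives and Jarid2 under all but the replicate block. Pcgf5 and Pcgf6 were lost with the block and limma-voom, and Phc1 with the block and without WT 1, WT 2 or WT 3. Aebp2 was lost in all of these and with no sex term.

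**Figure D5:**
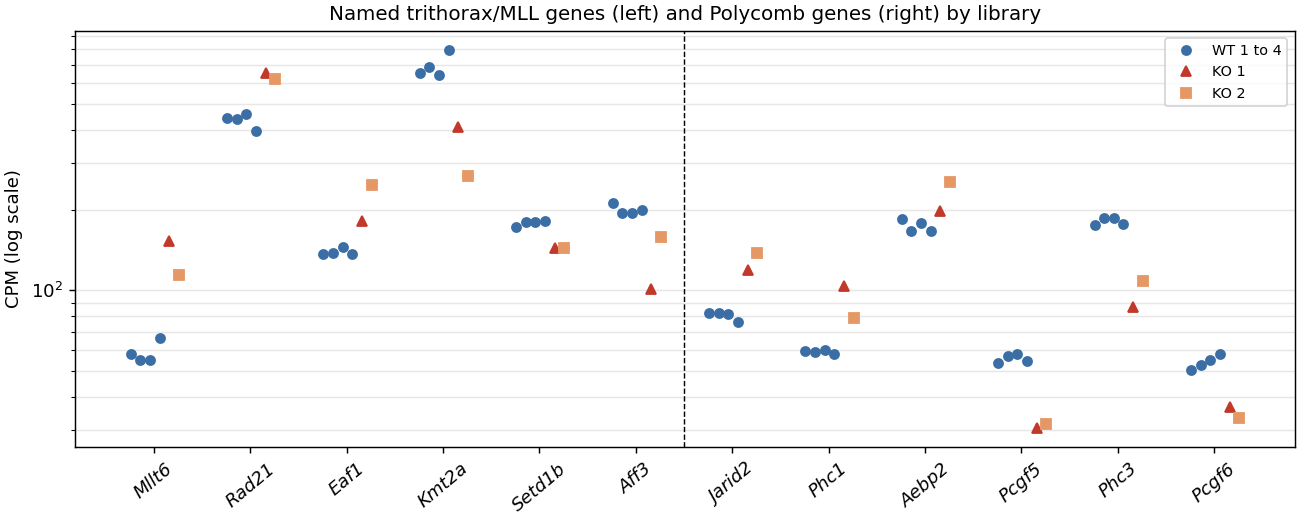
Level in CPM (log scale) of the 6 trithorax and MLL genes and the 6 Polycomb genes with the smallest adjusted p in each direction, up to 3 each, with a point for each library. The KO points lie above all WT points for Mllt6, Rad21, Eaf1, Jarid2, Phc1 and Aebp2 and below them for the other 6 genes.

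Of the genes of the Hoxa9 and Meis1 leukaemia programme, 30 of 34 were tested, 6 were called higher (20%), 8 lower (26.7%) and 16 not, with a median log2 change of -0.04. Trib2, a pseudokinase, rose from 21.7 CPM ± 4.71 to 258 and 360 CPM. Cdk6, a kinase of the cell cycle, fell from 305 CPM ± 12.4 to 56.5 and 68.4 CPM (edgeR adjusted p = 0.000187). Erg fell from 35.7 CPM ± 6.42 to 0.461 CPM in KO 1 and 0.746 CPM in KO 2 (edgeR adjusted p = 0.00031). The next genes by adjusted p were Camk2d and Ccnd3, called higher, and Bcl2, called lower. The call of Ccnd3 was lost with the replicate block. Among 16 cofactors and competitors of Hox proteins, Btg2 was called higher, Crtc1 lower and 14 not. Btg2 was at 172 to 235 CPM in WT libraries, 201 CPM in KO 1 and 485 CPM in KO 2, so KO 1 lay within the WT range, and its call was lost with no sex term, with the block and without WT 1, WT 2 or WT 3. That of Crtc1 was lost with the block.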

How the data were processed

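The authors deposited unnormalized read counts for each Entrez gene, and the submitters' processing notes name featureCounts and the mm10 build. Not given in the sources used here were the aligner, the versions and whether strand was used. Per the labels' protocols, RNA was amplified with a SMART-Seq v4 kit, which does not mark strand. The series table and the 6 single-library tables are identical, and 0 columns were left unmapped. Symbols came from RefSeq (GRCm38.p6) by Entrez identifier, with 25275 matched and 1057 not; exon overlaps came from GENCODE M21.

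The test was edgeR 4.0.16 in R 4.3.3: filterByExpr by genotype (count minimum 10), TMM scaling, and the quasi-likelihood F-test of KO against WT with sex as an additive term, which leaves 3 residual degrees of freedom. Called means an adjusted p (Benjamini-Hochberg, over all genes tested) under 0.05. CPM uses TMM-scaled library sizes, and CPM per kb the deposited length. A fold against a group without counts is a bound against 3 counts over that group, and it takes the counts of the other group as exact. For 1 to 3 counts it is a ratio with an exact 95% interval. The bound covers counting error of the group without counts only, and the interval counting error of both groups only. The alternatives used DESeq2 1.42.0 and limma 3.58.1. The fits were also run on simulated counts with known changes. The outcome of that run is not reported here and is not support for the calls.

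The results of 2 members and of 1 marker gene are not reported here, and counts and sums leave them out. The members and gene lists were chosen with earlier results of these data known. Values per library are given for members with a mean of at least 1 CPM in either group, and of each list up to 3 called genes with the smallest adjusted p in each direction are named; other genes, such as Hoxa2, Hoxa13 and the genes within 500 kb of a cluster, were chosen after their values were seen. Protein sequences were not used here.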

Additional observations from a re-analysis of the deposited data

Results flagged for a closer look

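Pbx2 in WT 4 stood apart from the other WT libraries, at 94.0 CPM, with a gap to the next library of 0.887 of the range of the group, above the 95% critical value of Dixon's test for 4 samples. Of 17 genes whose WT values were looked at in this way 1 stood apart, and chance gives about 1 in 20. WT 4 was the only male WT mouse.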

How the results depend on the processing

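Across the 13 alternatives to the edgeR fit, the 6 Hox genes called lower stayed lower in KO and Meis3 stayed higher. Scaling by DESeq2 size factors or library totals, no filter on low counts, and no sex term changed no count of calls by over 1.5 times. The DESeq2 test called 2 TALE genes lower against 0. limma-voom with weights per genotype called 1457 genes (975 higher, 482 lower) against 4076 (1878 and 2198), and 1 member, Meis3, so that 0 Hox genes were called lower.

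Each library came from an individual mouse, and the labels do not say whether mice with the same replicate number were matched. With the replicate block in place of sex, which leaves 1 residual degree of freedom, 748 genes were called (413 higher, 335 lower), and 2 members, both Hox genes (Hoxa5 and Hoxa7), with 0 TALE genes higher.

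Leaving out 1 library gave 1665 to 9473 calls, 881 to 4321 higher and 784 to 5152 lower. It gave 1665, 1714 and 1743 calls without WT 1, WT 2 and WT 3, and 8279, 8536 and 9473 without WT 4, KO 1 and KO 2. In the fits without WT 4, KO 1 or KO 2, a lone KO library carries the genotype contrast and is assumed to vary as WT does. Without WT 4, KO 1 was the only male mouse, so the sex term absorbed it. The contrast was then KO 2 against WT 1 to 3, as it was without KO 1. These fits are nearly the same comparison, with Hoxa7 at log2 -7.545 without WT 4 and -7.537 without KO 1. Members called were 5 to 10, Hox genes lower 5 to 6 and higher 0 to 1 (Hoxa13 without KO 2), and TALE genes lower 0 to 2 (Pbx2 and Pbx4 without WT 4 or KO 1, Pbx2 without KO 2) and higher 0 to 2. Pknox1, Gm11529 and Atp5g1 were not called in the edgeR fit over all libraries and changed sign in others. Pknox1 was at 0.02 on the log2 scale in that fit. It was at -0.0028 with library totals, -0.012 with limma-voom, -0.030 with no sex term and -0.092 with the block. Leaving out a library gave -0.15 to 0.15 for Pknox1, -0.24 to 1.48 for Gm11529 and -0.70 to 0.048 for Atp5g1. The Pknox1 values of 0.13 without WT 4 and 0.15 without KO 1 rest on KO 2 alone. The cause of these changes was not tested. Members under 3 counts in each library cannot be compared at this depth.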

Other observations

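Outside the Hox clusters, most homeobox genes of the same ANTP class were silent too: of 37 such genes, 27 had no count in any library, and 4 were tested. Gbx2, a homeobox gene of the midbrain boundary, was at 1.13 to 1.40 CPM in WT and had no count in KO (edgeR adjusted p = 0.00684), and Hlx, a homeobox gene of blood and gut, was at 0.418 to 0.652 CPM in WT and had none in KO (adjusted p = 0.0222). Dlx1 went the other way, at 0.141 CPM or less in WT libraries, 0.768 CPM in KO 1 and 2.54 CPM in KO 2 (adjusted p = 0.0208). With limma-voom or the replicate block all of these 3 calls were lost, those of Hlx and Dlx1 also without WT 1, WT 2 or WT 3, and that of Dlx1 also without KO 2. Hhex was not called, with no count in KO 1 and 2.76 CPM in KO 2, against 0.145 to 0.527 CPM in WT. The ParaHox genes Cdx1, Cdx2, Cdx4, Pdx1, Gsx1 and Gsx2 had no count in any library.

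Among other TALE homeobox genes, the repressor Tgif1 was lower, at 54.5 to 63.0 CPM in WT libraries, 42.0 CPM in KO 1 and 45.2 CPM in KO 2 (adjusted p = 0.0141), a call lost with limma-voom, with the block and without WT 1, WT 2 or WT 3, and Tgif2 was not called. The Irx genes had no count except for 3 of Irx2 in WT. Pbxip1, whose protein binds Pbx proteins, was at 73.6 to 94.9 CPM in WT libraries, 9.26 CPM in KO 1 and 37.9 CPM in KO 2 and was not called (adjusted p = 0.0522). Near HoxC, Nfe2, a leucine zipper factor of blood, was 211 kb away and at 19.9 CPM ± 2.68 in WT, 2.92 CPM in KO 1 and 1.57 CPM in KO 2.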
